A study of Mus musculus with 12 samples.

Results

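Fam174b, Atp2b2, Cdh6, S1pr3, Shisa9, Spock3, Prkcz, Pla2g5, Lepr and Svip are 10 genes of the mouse inferior vena cava (IVC) that were selected because their counts were lower after an arteriovenous fistula (AVF) than after a sham operation, with low p values. They are 10 of the 55414 genes in the table, and all 10 were among the 15912 genes with more than 1 CPM (read count scaled to the size of its library) in at least 2 samples. Since that difference chose them, the values of the members in AVF, nAVF or OUT against sham are a description of that choice, and no p value is read from them. Tests of the members were kept to OUT against nAVF, female against male, and the variation between mice of the same operation, and AVF against sham was tested for the other genes of their families and for tissue markers.

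The IVC came from 12 wild-type C57BL/6J mice of 10 weeks, on postoperative day 7. The AVF group was 6 mice, 3 female and 3 male, with an infrarenal aortocaval fistula made by passing a needle through the aorta into the IVC, and the sham group was 6 mice, 3 female and 3 male, that had the same operation without the puncture. Each library was 1 mouse, named here by its sample number. The study divided the 6 AVF by their expression into an outlying group (OUT, samples #05 and #09) and the 4 other AVF (nAVF, samples #04, #06, #07 and #11), so that OUT and nAVF were defined on these same libraries and are not labels given to the mice beforehand.

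Arterial pressure and flow enter the vein when a fistula opens, and the vein wall thickens and dilates as it adapts. The IVC that was sequenced is a mixed tissue. Endothelium and smooth muscle form its wall, fibroblasts its outer layer, and fat and sympathetic nerve lie along it, where the neurons carry the transmitter enzymes and Schwann cells wrap the axons. In such bulk RNA, fewer cells of a type and less RNA per cell cannot be told apart.

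The libraries held 15177881 to 22717423 counts. Sample #07 had the fewest, and 47.2% of its counts were on ribosomal RNA and related genes, against 2.43% to 12.9% in the other libraries. Markers of the vein wall were high in all 12 samples: Myh11, the smooth muscle myosin, was at 564 to 1300 normalized CPM in AVF and 959 to 1780 in sham, and Pecam1, an endothelial adhesion molecule, at 569 to 721 and 589 to 1090. The 9 hepatocyte markers summed to 2909 to 9363 normalized CPM in OUT and to 1.06 to 6.03 in the 10 other samples, and their part in the results of OUT was not tested.

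The members lie on 7 chromosomes and are all protein-coding. On GRCm39 their spans are chr7:73389800-73426676 for Fam174b and chr7:51644993-51655766 for Svip, chr4:101574601-101676237 for Lepr, chr4:138526553-138590916 for Pla2g5 and chr4:155344575-155445909 for Prkcz, chr6:113720766-114021022 for Atp2b2, chr8:63403773-63811773 for Spock3, chr13:51561702-51576833 for S1pr3, chr15:13028787-13174004 for Cdh6, and chr16:11801977-12088766 for Shisa9. Spock3, Fam174b, Atp2b2 and Pla2g5 contain other gene models on their own strand, and reads there could be shared between the models in the counting.

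The start sites of the genes are shown first for 5 members whose levels went separate ways below: Fam174b and Svip, which had no called slope on a tissue marker score, and Atp2b2, Spock3 and Cdh6, whose levels moved together. Each window is the RefSeq promoter on GRCm38.p6, 250 bases before to 50 after a start site, read 5′ to 3′ on the strand of the gene. Svip and Spock3 have 2 listed windows each and Atp2b2 has 3, and the first was printed for Svip and Atp2b2 and the second for Spock3. Capitals mark CACCC, the letters of KLF-type sites, and GGGCGG, the GC box, on either strand. The windows are chr7:73740057-73740356 on the plus strand for Fam174b, chr7:52005665-52005964 on the minus strand for Svip, chr6:114042031-114042330 on the minus strand for Atp2b2, chr8:62951095-62951394 on the plus strand for Spock3 and chr15:13173626-13173925 on the minus strand for Cdh6.
Fam174b: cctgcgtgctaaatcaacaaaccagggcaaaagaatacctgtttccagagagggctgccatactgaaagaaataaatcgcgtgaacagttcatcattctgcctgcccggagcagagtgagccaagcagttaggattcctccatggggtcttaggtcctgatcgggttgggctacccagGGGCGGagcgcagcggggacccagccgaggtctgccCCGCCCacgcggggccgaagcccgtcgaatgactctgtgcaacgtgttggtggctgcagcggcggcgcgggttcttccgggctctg
Svip: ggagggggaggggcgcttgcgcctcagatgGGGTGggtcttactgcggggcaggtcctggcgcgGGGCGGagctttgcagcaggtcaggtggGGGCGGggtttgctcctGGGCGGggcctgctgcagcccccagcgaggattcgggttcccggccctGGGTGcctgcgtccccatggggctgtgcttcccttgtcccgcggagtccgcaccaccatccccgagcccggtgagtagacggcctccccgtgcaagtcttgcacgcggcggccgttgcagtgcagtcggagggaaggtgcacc
Atp2b2: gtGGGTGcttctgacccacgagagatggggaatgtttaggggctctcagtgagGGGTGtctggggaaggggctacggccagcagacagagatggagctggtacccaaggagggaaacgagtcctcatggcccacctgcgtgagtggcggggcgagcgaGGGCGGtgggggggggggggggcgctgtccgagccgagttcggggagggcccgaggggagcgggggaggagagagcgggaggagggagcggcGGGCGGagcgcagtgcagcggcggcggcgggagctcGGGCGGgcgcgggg
Spock3: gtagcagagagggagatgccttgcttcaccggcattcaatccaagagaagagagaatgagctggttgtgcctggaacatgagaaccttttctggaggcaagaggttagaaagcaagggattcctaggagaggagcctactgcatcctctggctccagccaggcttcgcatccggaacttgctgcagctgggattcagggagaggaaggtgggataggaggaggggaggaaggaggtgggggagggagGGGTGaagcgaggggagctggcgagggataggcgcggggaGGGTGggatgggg
Cdh6: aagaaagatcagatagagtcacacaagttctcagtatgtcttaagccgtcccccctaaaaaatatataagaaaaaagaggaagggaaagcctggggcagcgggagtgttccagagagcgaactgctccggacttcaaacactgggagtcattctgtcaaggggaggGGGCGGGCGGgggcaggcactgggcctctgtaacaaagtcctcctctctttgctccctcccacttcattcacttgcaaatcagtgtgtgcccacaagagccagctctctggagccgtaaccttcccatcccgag

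The Fam174b window held 2 GC boxes and no CACCC, and 60.3% of its bases were G or C. The Svip window held 3 GC boxes and 2 CACCC, and the Atp2b2 window 3 and 2, at 71.7% and 72.7% G or C, so these windows of 2 members that behaved differently had the same motif counts. The other windows differ: those of Atp2b2 held 2 CACCC and no GC box, and 2 GC boxes and no CACCC, that of Svip 3 of each, and that of Spock3 1 CACCC. The Spock3 window had 2 CACCC and no GC box. In Cdh6 the 2 GC boxes overlapped and there was no CACCC. Promoters were listed for 9 of the 10 members, with 17 windows in all, and none for Shisa9. A CACCC was in 12 of the 17 windows and in 57.5% of all 32851 windows listed for the mouse, and a GC box in 10 of 17 and in 35.7% of all. The letters TGACGTCA, the cyclic AMP response element, were in 1 window, of Prkcz, and in 1.79% of all windows. A match of letters is a description and shows no binding.

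**Figure D1:**
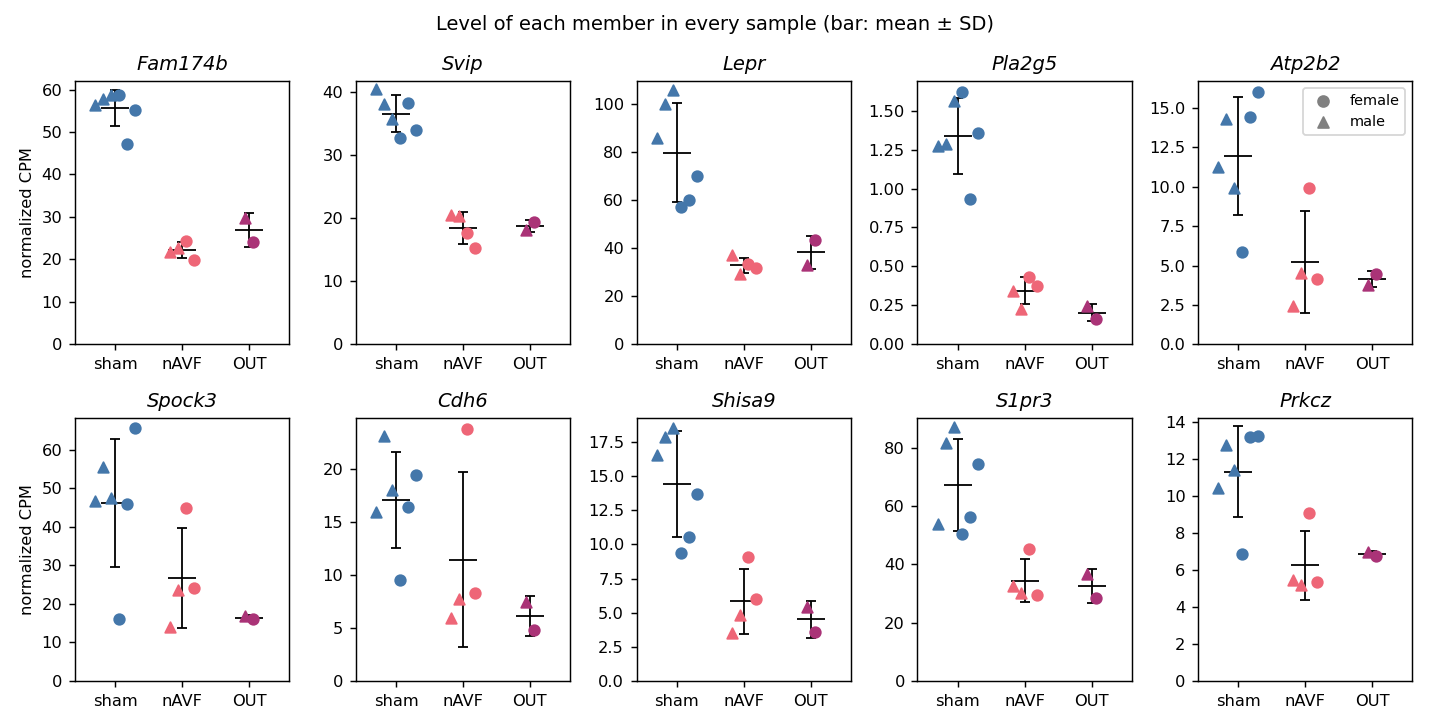
Normalized CPM of each member in the 6 sham, 4 nAVF and 2 OUT samples, with circles for female and triangles for male mice and bars for mean ± SD. Every AVF sample of Fam174b, Svip, Lepr, Pla2g5, Shisa9 and S1pr3 lies below every sham sample, and sample #07 is the highest AVF sample of Atp2b2, Spock3, Cdh6 and Prkcz.

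The levels below are normalized CPM, CPM rescaled by the TMM factors of edgeR, and each fold change is the edgeR estimate on the log2 scale with its standard error. Fam174b, which encodes a small membrane protein, was at 19.7 in the lowest, 23.4 at the median and 29.8 in the highest of 6 AVF samples, and at 47.3, 57.1 and 58.7 in sham. Its log2 fold change was -1.23 ± 0.10. The groups were far apart: the lowest sham, sample #22, was still well above the highest AVF, sample #05.

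Svip, the small VCP-interacting protein that inhibits degradation of proteins from the endoplasmic reticulum, was at 15.2, 18.7 and 20.5 in AVF and at 32.6, 36.8 and 40.4 in sham. The log2 fold change was -0.98 ± 0.09. Fam174b and Svip were the members with the tightest sham levels, with an SD of 7.77% and 8.05% of the sham mean.

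Lepr, the leptin receptor, was at 29.2, 33.3 and 43.2 in AVF and 56.9, 77.9 and 106 in sham, with a log2 fold change of -1.20 ± 0.16. The groups did not overlap, and the 3 male sham samples were the highest of all, at 85.9 to 106. Pla2g5, a secreted phospholipase A2 that releases fatty acids from membranes, was the lowest member, at 0.164, 0.293 and 0.431 in AVF and 0.931, 1.32 and 1.62 in sham. These were 3 to 8 counts in AVF and 22 to 37 in sham, so that the log2 fold change of -2.18 ± 0.29 rests on few reads in AVF. The span of Pla2g5 holds Pla2g2a on the opposite strand, and the counting used strand.

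Shisa9, an auxiliary protein of AMPA-type glutamate receptors, was at 3.49, 5.12 and 9.05 in AVF and 9.39, 15.1 and 18.5 in sham. Its log2 fold change was -1.43 ± 0.25, and the highest AVF sample, #07, was next to the lowest sham sample, #19. S1pr3, a receptor for sphingosine-1-phosphate on smooth muscle and endothelium, was at 28.3, 31.3 and 45.2 in AVF and 50.5, 65.2 and 87.3 in sham, with a log2 fold change of -1.0 ± 0.16 and no overlap.

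In the other 4 members the groups overlapped. Atp2b2, a calcium pump of the plasma membrane that is known from neurons and hair cells, was at 2.40, 4.33 and 9.91 in AVF and 5.84, 12.8 and 16.0 in sham, with a log2 fold change of -1.31 ± 0.32. Spock3, the proteoglycan testican-3, was at 14.0, 20.2 and 44.9 in AVF and 16.1, 47.1 and 65.7 in sham, with a log2 fold change of -1.0 ± 0.33. Sample #19 was the lowest sham sample of both genes. Of Atp2b2, sample #07 was the 1 AVF sample inside the sham range, and of Spock3 the 4 samples #05, #06, #07 and #11 were inside it, at 16.9, 23.5, 44.9 and 24.2.

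Cdh6, a cadherin that joins cells of the same kind, was at 4.82, 7.59 and 23.8 in AVF and 9.50, 17.2 and 23.1 in sham, so sample #07 exceeded every sham sample. The log2 fold change of Cdh6 was -0.84 ± 0.35, and -1.29 without sample #07. Prkcz, an atypical protein kinase C of cell polarity, was at 5.20, 6.08 and 9.05 in AVF and 6.84, 12.1 and 13.3 in sham, with a log2 fold change of -0.81 ± 0.19.

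Sample #07 had the highest AVF level of 7 members and sample #19 the lowest sham level of 8. In AVF the spread ran from an SD of 10.9% of the mean for Svip to 72.7% for Cdh6. Every AVF sample was below every sham sample for 6 of the 10 members, Fam174b, Svip, Lepr, Pla2g5, Shisa9 and S1pr3, and for 1.51% of all genes tested. As a description of the choice, with no test read from it, 8 members had an adjusted p value under 0.05 and a lower level in edgeR's quasi-likelihood test, as 5.13% of genes had, and 0 were among the 8.63% that were higher. The 5 members Fam174b, Pla2g5, Lepr, Shisa9 and Atp2b2 also had at least a 2-fold difference, the definition of a DEG, as 1.4% of genes had. S1pr3, at a log2 fold change of -0.999, and Svip, at -0.978, fell just short of 2-fold, so a small shift can move them across. Without sample #07 there were 8 members that met the definition, and 8 also without sample #19. The shares of all genes are no measure for members that were picked on this contrast, and these counts were fixed in large part by the picking. Pla2g5 passed the filter on CPM through the sham samples alone, so its place among these counts was conditioned on its being high in sham.

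The name given to the set, of genes lowered most consistently, covers members of unlike rank on the contrast that chose them. The order and calls here describe that choice, and no test is read from them. Ordered by p value among the genes that were lower in AVF, Fam174b was at place 2, Svip 3, Pla2g5 6, Lepr 8, S1pr3 27, Shisa9 50, Prkcz 185, Atp2b2 260, Spock3 1035 and Cdh6 2008. In edgeR's quasi-likelihood test Spock3 and Cdh6 were the 2 members without an adjusted p value under 0.05. Spock3 was under 0.05 with the exact test of edgeR and with DESeq2, and Cdh6 with neither.

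Levels of different genes were compared per kilobase of exon. In sham, Fam174b was highest at 14.9 ± 1.16 normalized CPM per kilobase (SD, n = 6), then S1pr3 at 13.8 ± 3.23, Lepr at 7.15 ± 1.85, Svip at 5.13 ± 0.413, Spock3 at 4.48 ± 1.6, Shisa9 at 2.71 ± 0.72, Prkcz at 1.75 ± 0.379, Cdh6 at 1.67 ± 0.442, Atp2b2 at 0.757 ± 0.237 and Pla2g5 at 0.340 ± 0.0624. The neighbours Fam174b and S1pr3, Svip and Spock3, and Prkcz and Cdh6 were within 1 SD of the more variable gene of the pair.

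Against sham, the estimates of all 10 members were below 0 in nAVF and in OUT. The definition of a DEG was met in nAVF by 5 members (Fam174b, Shisa9, Pla2g5, Lepr and Svip) and by 0.467% of genes, and in OUT by 6 (Fam174b, Atp2b2, Cdh6, S1pr3, Shisa9 and Pla2g5) and by 0.271%. These 2 comparisons share the 6 sham samples and use the values that chose the members, so the counts describe the choice and nothing is read from them. Leaving out sample #07 gave 8 members in nAVF, and leaving out sample #11 gave 3. With 1 OUT sample left, the fit takes its spread from sham, and 3 members passed without sample #05 and 1 without sample #09. Leaving out sham sample #17, #18 or #23 gave 3 members in OUT.

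In OUT against nAVF, 0 of 10 members differed, against 1.59% of genes tested with edgeR's quasi-likelihood test. The count was also 0 with DESeq2 and with the exact test of edgeR. By unadjusted p value under 0.05 in the quasi-likelihood test it was 0, against 1144 of 22123 genes. The log2 difference, OUT minus nAVF, was largest for Cdh6 at -0.87 ± 0.54, next for Pla2g5 at -0.71 ± 0.83 and Spock3 at -0.68 ± 0.38, and it was within 0.1 of 0 for S1pr3 and Svip, at -0.07 ± 0.21 and 0.03 ± 0.19. With 2 OUT samples the standard error of this difference ran from 0.17 for Fam174b and Lepr to 0.83 for Pla2g5, so a small difference could be seen far less well in some members than in others.

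Female and male mice were compared within each operation. Among sham, 0 of 10 members differed at an adjusted p value under 0.05 and 1.5-fold, against 0.0818% of genes, and 2 had an unadjusted p value under 0.05, as did 2030 of 21992 genes. These were Lepr, at a log2 difference of female minus male of -0.64 ± 0.12, and Shisa9, at -0.65 ± 0.17, and their adjusted p values in edgeR's quasi-likelihood test were 0.26 and 0.38. Lepr was at 56.9, 59.9 and 69.9 normalized CPM in the female sham samples and 85.9, 99.8 and 106 in the male ones. The sexes did not overlap, and DESeq2 called Lepr as its 1 member. The share of all genes that DESeq2 called there was not counted.

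Among AVF, 0 of 10 members differed between the sexes in edgeR's quasi-likelihood test, against 0.0316% of genes, and 0 with any tool tried. By unadjusted p value under 0.05 in the quasi-likelihood test there were 0 members, against 731 of 22123 genes. Lepr was at 31.9, 33.4 and 43.2 in female and 29.2, 33.2 and 36.9 in male AVF. The interaction of operation and sex, which asks whether the effect of the AVF differed between the sexes, was called for 0 of 10 members and for 0% of genes with edgeR and for 0 members with DESeq2. Without adjustment 2 members passed 0.05, as did 813 of 15912 genes: Lepr, with an interaction of 0.77 ± 0.21 on the log2 scale, and Shisa9, with 1.08 ± 0.42. Their adjusted p value was 0.931 each.

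The tissues around the wall were followed with marker scores, each the mean log2 CPM of its listed markers in a sample. The sympathetic neuron score was 4.77 ± 0.88 (SD, n = 6) in AVF and 5.97 ± 0.752 in sham. Of its 13 markers 0 passed the adjusted p value in AVF against sham in edgeR, and their log2 fold changes were -0.80 to -1.34. All 13 had an unadjusted p value under 0.05, as did 5023 of 15912 genes in either direction. The 13 share their libraries and are not 13 separate tests. Th, the first enzyme of noradrenaline synthesis, was at 9.31 to 44.8 normalized CPM in AVF and 17.2 to 77.0 in sham. The 13 summed to 249 to 1406 in AVF and 568.3 to 2417 in sham, and none was at 0. Sample #04 had the lowest score, 3.26, and sample #19 the lowest in sham, 4.55, while sample #07 had the highest in AVF, 5.85.

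The brown fat score was 3.08 ± 1.17 in AVF and 5.00 ± 1.45 in sham. Of the 8 brown fat markers 4 were lower with an adjusted p value under 0.05 in edgeR, against 5.13% of genes. Cidea was 1 of them, with a log2 fold change of -2.21. Ucp1, the uncoupling protein of brown fat, was at 1.69 to 121 in AVF and 22.9 to 1090 in sham. It did not pass, with an adjusted p value of 0.079 in edgeR's quasi-likelihood test. The Schwann cell score was 5.15 ± 0.418 in AVF and 5.78 ± 0.371 in sham, with 1 of 11 markers lower, Ngfr at -1.20. White adipocyte and endothelium scores were alike in level, 7.77 ± 0.536 and 7.84 ± 0.483, and 6.76 ± 0.101 and 6.78 ± 0.22. Of their markers 0 of 9 and 0 of 10 were called in edgeR. By unadjusted p value under 0.05 there were 0 of each, against 5023 of 15912 genes. The smooth muscle score was 7.98 ± 0.282 and 7.77 ± 0.304, with 2 of 12 markers higher, and the fibroblast score 8.58 ± 0.133 and 8.18 ± 0.269, with 4 of 9 markers higher and 1 lower. Macrophage markers were higher for 6 of 8, with a sum of 717 to 1298 normalized CPM in AVF and 429 to 704 in sham.

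Whether a member moved with a tissue was tested on the variation between mice within AVF and within sham. That variation was not free of the choice, since a low p value favours genes with little spread within the groups, such as Fam174b and Svip, and a slope near 0 is in part a result of it. The slope is the log2 change of a gene for 1 unit of a score, with the operation in the fit, and p values were adjusted over all 15912 genes. The same slope was fitted to AVF and sham, so opposite trends within the operations can cancel in it. On the sympathetic neuron score 3 of 10 members had a slope, against 4.91% of genes: Atp2b2 at 0.68 ± 0.11 with an adjusted p value of 0.00153, Spock3 at 0.71 ± 0.11 with 0.00162, and Cdh6 at 0.63 ± 0.15 with 0.0273 (edgeR's quasi-likelihood test). DESeq2 called 5, the same 3 with Shisa9 and Prkcz. The share of all genes that DESeq2 called was not counted on any score.

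Spock3 stayed past the threshold in every fit tried, and Atp2b2 in each fit that left out 1 sample. Cdh6 lost it without sample #07, at 0.39 with an adjusted p value of 0.0906, and without sample #19, at 0.66 with 0.0933. Without both samples farthest from their group mean of the score, #04 and #19, which was chosen after the data were seen, Atp2b2 had a slope of 0.79 with an adjusted p value of 0.102. Shisa9 at 0.42 ± 0.13, Prkcz at 0.31 ± 0.09 and S1pr3 at 0.18 ± 0.10 did not pass in edgeR.

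Fam174b, Svip, Lepr and Pla2g5 had slopes near 0 on that score, at -0.01 ± 0.07, -0.04 ± 0.06, -0.01 ± 0.12 and -0.05 ± 0.19. Each of these slopes averages over trends of opposite sign within AVF and within sham. As a description, r over AVF and over sham was 0.157 and -0.49 for Fam174b, and -0.596 and 0.436 for Svip. It was -0.52 and 0.312 for Lepr, and 0.268 and -0.596 for Pla2g5. In sample #19, whose neuron score was the lowest in sham, Fam174b was at 58.6 normalized CPM, next to its sham maximum of 58.7, while Svip at 32.6 and Lepr at 56.9 had their lowest sham level there. In sample #07, whose score was in the range of sham, Fam174b was at 24.2 and Svip at 17.6, in the range of the other AVF samples.

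**Figure D2:**
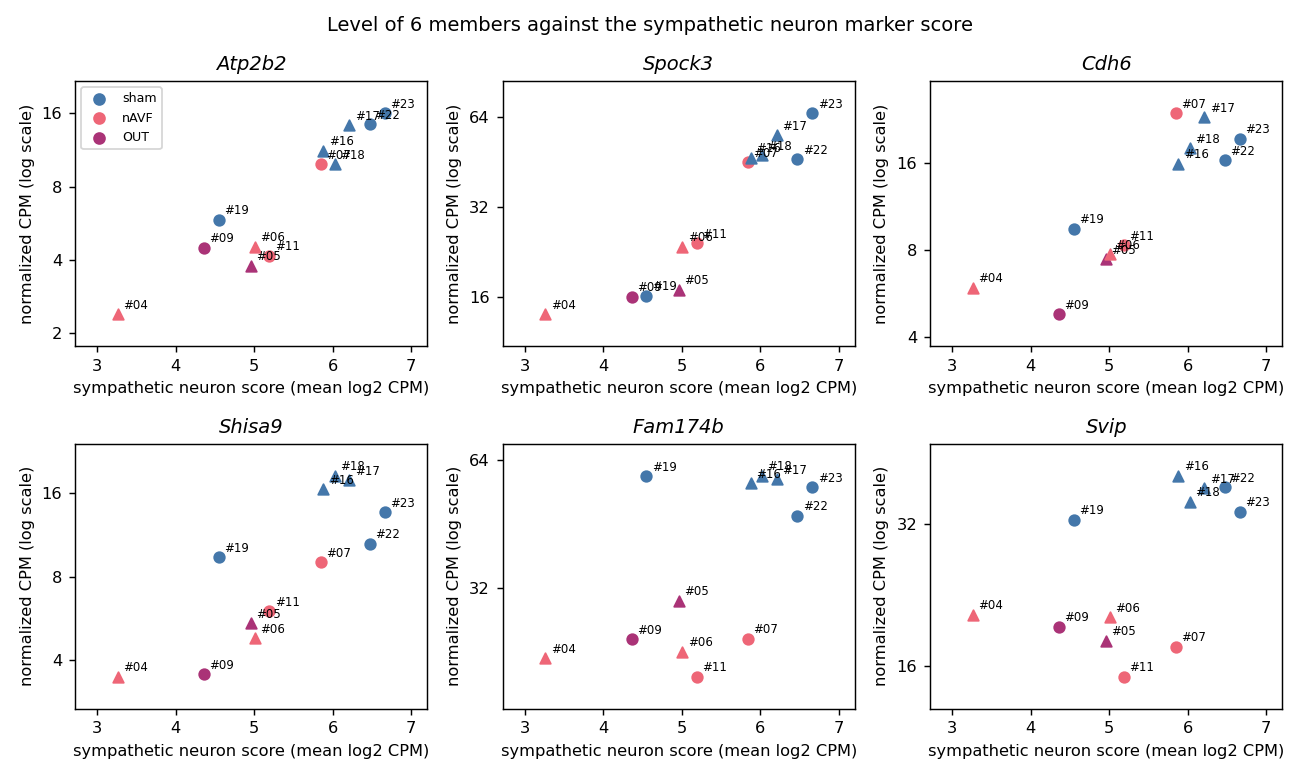
Normalized CPM on a log axis against the sympathetic neuron score for 6 members, with each sample numbered, circles for female and triangles for male mice. Atp2b2, Spock3 and Cdh6 rise along the score within both operations, while Fam174b and Svip lie on separate levels for AVF and sham, with sample #19 in the sham level and sample #07 in the AVF level.

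On the Schwann cell score 1 of 10 members had a slope, Shisa9 at 1.01 ± 0.20 with an adjusted p value of 0.0139, against 6.46% of genes. With the replicate number as a block the call was lost, at 1.76 ± 0.28 with an adjusted p value of 0.212. Leaving out sample #04 or sample #11 added S1pr3, and leaving out sample #05 added Cdh6. The Schwann cell and white adipocyte scores tended to run opposite within each operation, so slopes on them are not separate findings. In AVF, sample #04 had the lowest Schwann cell score, 4.53, and the highest white adipocyte score, 8.56. In sham, sample #22 had the lowest Schwann cell score, 5.38, and the highest white adipocyte score, 8.51. On the white adipocyte score Shisa9 had a negative slope, -0.75 ± 0.17 with an adjusted p value of 0.0245, as the 1 member called against 6.35% of genes, and the call was lost without sample #04, #09, #17 or #18, with slopes of -0.76, -0.67, -0.73 and -0.75, without the OUT samples, at -0.68, and with the replicate block, at -1.11 ± 0.30 with an adjusted p value of 0.404.

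On the brown fat score 0 of 10 members had a slope, against 8.43% of genes. None had an unadjusted p value under 0.05 in edgeR, as 3802 of 15912 genes had, and none had a call in DESeq2. The slopes ran from -0.18 ± 0.09 for Shisa9 to 0.02 ± 0.04 for Svip. As a description, r of Lepr with this score was 0.813 over the AVF samples and -0.864 over the sham samples. That of S1pr3 was 0.246 and -0.922, so a slope near 0 need not mean no trend within an operation. Cdh6, Shisa9, Spock3 and Pla2g5 had a negative r in both operations. Cdh6, at -0.12 ± 0.15 with all samples, and Shisa9 were each at -0.23 without sample #07. Some fits without 1 sample called members on this score, and the share of all genes they called was not counted.

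The wall and fibroblast scores gave no call for the members. The counts were 0 of 10 on the smooth muscle score, against 0.0628% of genes, and 0 of 10 on the endothelium score, against 0%. On the fibroblast score 0 of 10 were called, against 3.46%. By unadjusted p value under 0.05 in edgeR the count was 0 on each, against 2197, 619 and 2993 of 15912 genes in this order. DESeq2 called 0 on each. As a description, r of Lepr with the fibroblast score was -0.551 over AVF and 0.823 over sham, so trends of opposite sign shared 1 slope. The endothelium score varied by an SD of 0.101 in AVF and 0.22 in sham, and its slopes had standard errors of 0.28 for Fam174b to 1.22 for Cdh6. Fam174b had a slope of 0.60 ± 0.28 on it, with an adjusted p value of 1 in edgeR, and as a description its r with this score was 0.704 over the 6 AVF and 0.806 over the 6 sham samples.

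**Figure D3:**
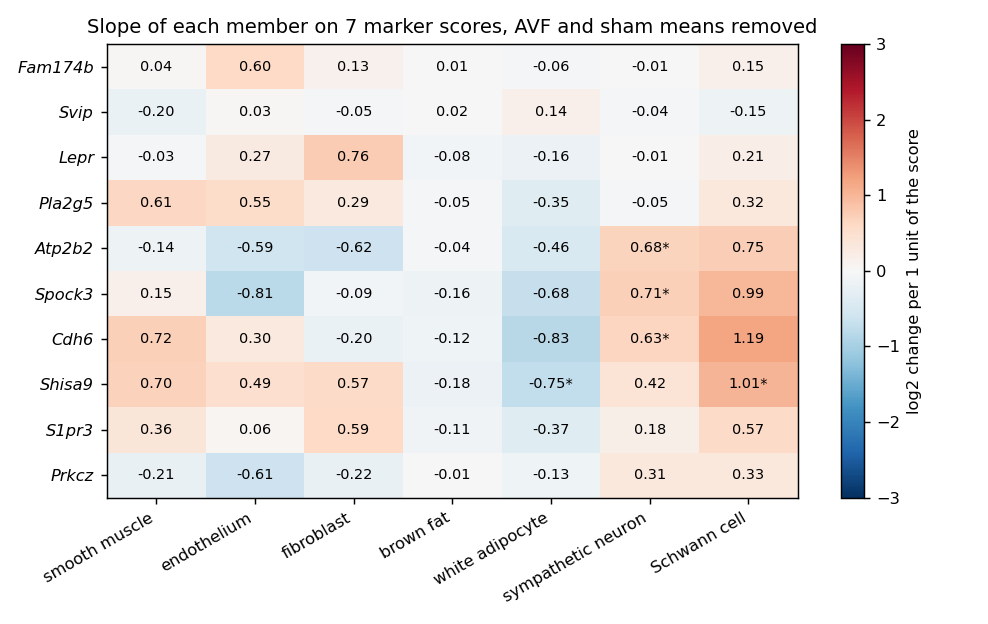
Slope of each member, in log2 change per 1 unit, on 7 marker scores with the operation in the fit, where a star marks an adjusted p value under 0.05. The starred slopes are those of Atp2b2, Spock3 and Cdh6 on the sympathetic neuron score and of Shisa9 on the Schwann cell and white adipocyte scores, and the brown fat column runs from -0.18 to 0.02.

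The AVF and sham difference was then estimated with 1 score at a time in the fit, and these values are given without a test. With the sympathetic neuron score in it, the log2 fold change went from -1.31 to -0.52 ± 0.20 for Atp2b2, from -1.0 to -0.13 ± 0.22 for Spock3, from -0.84 to -0.17 ± 0.28 for Cdh6, and from -0.81 to -0.42 ± 0.18 for Prkcz. That of Shisa9 went from -1.43 to -0.98 ± 0.23 and that of S1pr3 from -1.0 to -0.77 ± 0.19. The estimates for Fam174b at -1.24 ± 0.13, Svip at -1.02 ± 0.12, Lepr at -1.22 ± 0.23 and Pla2g5 at -2.24 ± 0.36 were as large with the score as without it.

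With the Schwann cell score the values were -0.18 ± 0.33 for Cdh6, -0.43 ± 0.35 for Spock3, -0.62 ± 0.15 for S1pr3, -0.83 ± 0.19 for Shisa9 and -0.90 ± 0.37 for Atp2b2. Fam174b was at -1.13 ± 0.13 and Svip at -1.07 ± 0.12. With the brown fat score the members were at -0.84 ± 0.23 for Prkcz to -2.27 ± 0.37 for Pla2g5, and with the smooth muscle score at -0.77 ± 0.20 to -2.32 ± 0.31 for the same 2 genes. With the fibroblast score these 2 genes were at -0.73 ± 0.25 and -2.30 ± 0.39. Lepr was then at -1.47 ± 0.19 and Atp2b2 at -1.09 ± 0.40, against -1.20 and -1.31 without a score. The scores are themselves measured in the same libraries and differ in level between AVF and sham, and the part of nerve, fat or wall in the lower levels was not tested.

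**Figure D4:**
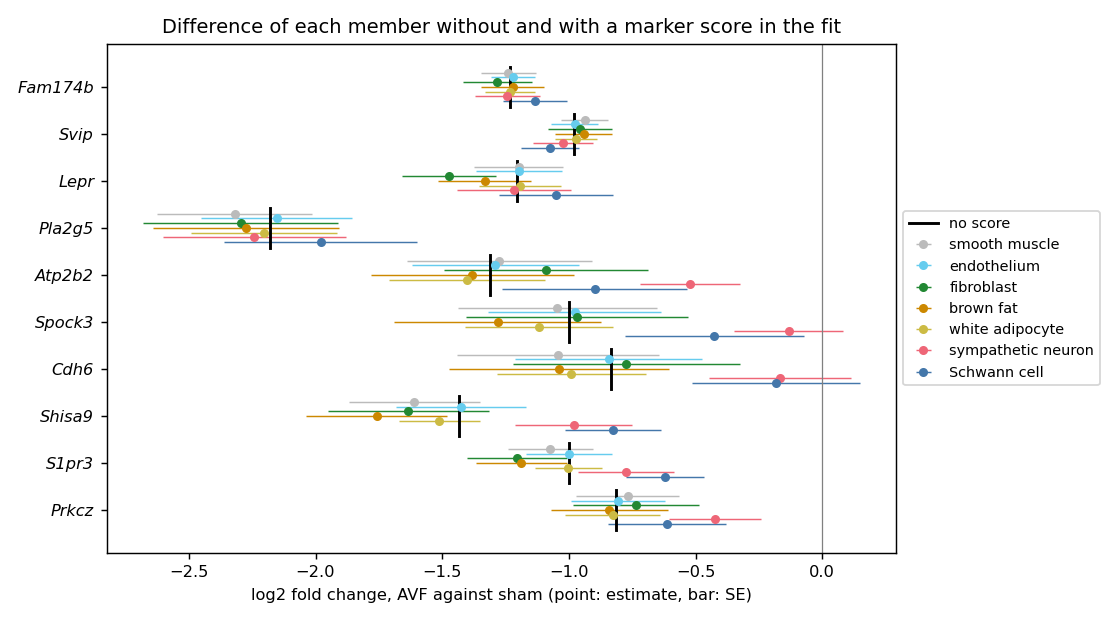
Log2 fold change of each member in AVF against sham without a score (black line) and with each of 7 marker scores in the fit (points with SE). With the sympathetic neuron score, the points of Fam174b, Svip, Lepr and Pla2g5 lie near their black lines. Those of Atp2b2, Spock3 and Cdh6 with that score lie to the right of theirs, at -0.52, -0.13 and -0.17, as does that of Prkcz at -0.42. With the fibroblast score the point of Lepr lies to the left of its line, at -1.47, and that of Atp2b2 to the right, at -1.09.

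For each member the genes most alike were sought among 14387 other protein-coding genes, by Pearson's r of log2 CPM over the 12 samples after the mean of each operation was subtracted. These are descriptions, and all points share their libraries. Atp2b2 was most like Astn1 (r = 0.977) and Marchf4 (0.968), Spock3 like Cntn3 (0.978), Hecw1 (0.975) and Dlg2 (0.968), and Cdh6 like Lancl3 (0.975), Faxc (0.973) and Ttbk2 (0.968). Prkcz was most like Fgf1 (0.948), Rps6ka6 (0.946) and Kcnh1 (0.945), Shisa9 like Dok5 (0.935), Fam13b (0.925) and Gjc3 (0.923), and S1pr3 like Fip1l1 (0.937), Marchf9 (0.92) and Abca3 (0.917).

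The remaining members had weaker partners. Svip was most like Bhlhe40 (r = 0.922), Rnf181 (0.913) and Jmjd8 (0.903), Pla2g5 like Dip2b (0.905), Zfp423 (0.857) and Atxn7l2 (0.851), Lepr like Snn (0.904), Rcbtb1 (0.904) and Man1a (0.902), and Fam174b like Rnf215 (0.847), Itgb4 (0.845) and Homer3 (0.84). Between members, r was 0.907 for Atp2b2 and Spock3, 0.878 for Cdh6 and Spock3, and 0.832 for Atp2b2 and Cdh6, while Fam174b had r of -0.163 to 0.369 with the other members.

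The relatives and pathway partners of the members were taken from 10 lists, with 95 of 109 genes tested in AVF against sham. Of these 5 were lower and 10 higher with an adjusted p value under 0.05 in edgeR's quasi-likelihood test, against 5.13% and 8.63% of all genes, and their median log2 fold change was -0.13, against -0.01 over all genes. Without sample #07 there were 9 lower genes, without sample #05 or #23 there were 3, and without sample #16 there were 5 higher ones.

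In the sphingosine-1-phosphate list 4 of 14 genes were higher and 0 lower. S1pr2, another receptor, rose by 0.58 ± 0.13 on the log2 scale with an adjusted p value of 0.0157, opposite in direction to S1pr3, and Sgpp1 and Plpp1, phosphatases that remove the phosphate of such lipids, rose by 0.47 ± 0.12 and 0.55 ± 0.14. Sphk1, the kinase that makes the ligand, rose by 1.37 ± 0.42 with 0.0472 in edgeR. S1pr1 was at -0.18 ± 0.14 and did not pass.

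Among the calcium pumps and exchangers 1 of 10 tested was called, Atp2b1, the widely expressed pump of the same family as Atp2b2, which rose by 0.32 ± 0.08. Of 14 cadherins tested, Cdh11, the cadherin of mesenchymal cells, rose by 1.05 ± 0.28, and Cdh19, known from Schwann cells, had a log2 fold change of -0.68 ± 0.19 and was the 1 called lower. Of 14 genes of protein kinase C and its polarity partners, Prkcq was lower at -0.55 ± 0.15. Of 10 Shisa and AMPA receptor genes, Shisa2 was lower at -0.94 ± 0.25.

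The testicans and SPARC relatives had the most calls, 5 of 7. Spock2 was lower at -0.84 ± 0.23 and Sparcl1 at -0.58 ± 0.13, while Sparc, a collagen-binding matrix protein, rose by 1.01 ± 0.18, Smoc1 by 0.57 ± 0.14 and Fstl1 by 1.66 ± 0.19. Of 11 genes of VCP and degradation at the endoplasmic reticulum, Selenos, which binds VCP as Svip does, rose by 0.37 ± 0.11. The count was 0 of 9 for leptin signalling, 0 of 4 for the secreted phospholipases A2 tested and 0 of 2 for the other Fam174 genes. Fam174a was at -0.10 ± 0.08 and Fam174c at -0.24 ± 0.21. By unadjusted p value under 0.05 in edgeR there were 3 genes for leptin signalling and 0 in the 2 other lists, against 5023 of 15912 genes.

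**Figure D5:**
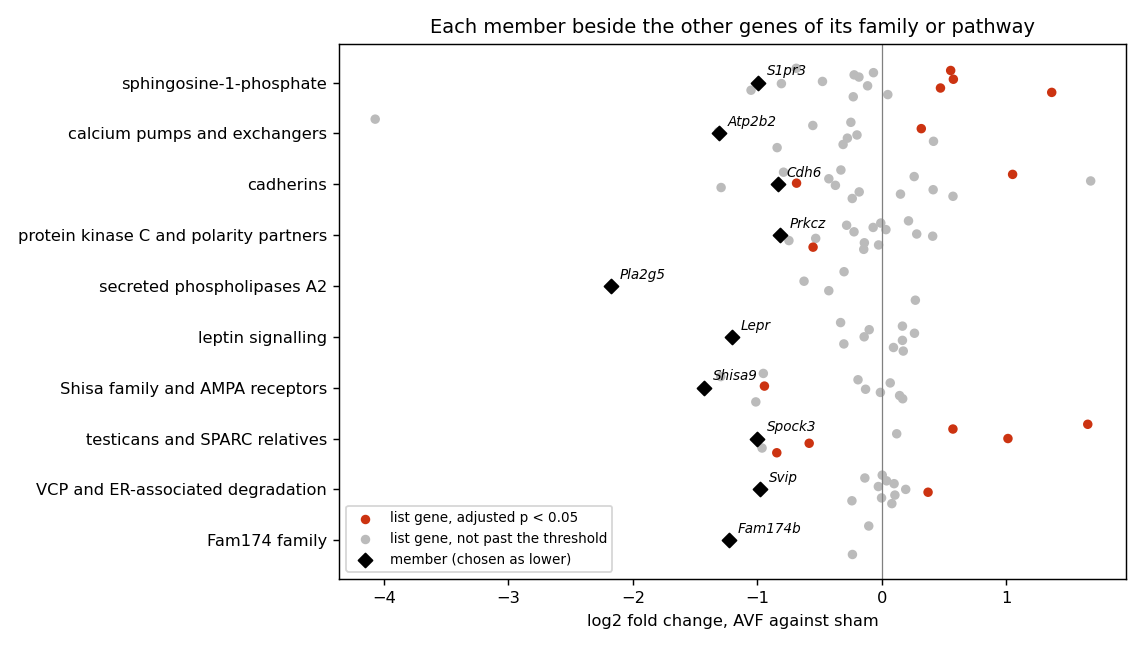
Log2 fold change in AVF against sham of the 95 tested family and pathway genes, in red where the adjusted p value was under 0.05, beside each member as a black diamond. Each diamond lies left of 0 because the members were chosen so, and the red points lie on both sides, 5 lower and 10 higher.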

How the data were processed

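RNA-seq of the IVC of 12 mice was analysed. Per the labels and the methods of the study, the authors made stranded poly-A libraries, trimmed reads with Trimmomatic 0.39, aligned them to GRCm39 with STAR 2.7.7a and deposited RSEM 1.3.3 expected counts of genes, without normalization. These expected counts were rounded, and tested with edgeR 4.0.16 (R 4.3.3), its quasi-likelihood test and TMM factors, and Benjamini-Hochberg adjustment across the genes tested. The script was tested on simulated data. Genes needed more than 1 CPM in at least 2 samples, or, in comparisons of nAVF, OUT or the sexes, more than 12 counts over the 12 samples. A DEG had an adjusted p value under 0.05 and a 2-fold difference, or 1.5-fold between the sexes. Gene names and exon lengths were from GENCODE M39, on the same build but a later release. Scores are the mean log2 CPM (prior count 1) of their markers. Sex and operation came from the labels and OUT and nAVF from the paper. Each library was 1 mouse. The members and lists were chosen with earlier results of these data known. Genes named are the members, called family genes (at most 3 per list and direction), defining markers and the 3 genes most like each member, of which 1 is not reported here. Replicate numbers of the labels were not taken to pair the samples. Alternatives were the exact test, DESeq2 1.42.0, other scalings and filters, sex, scores or a replicate block in the fit, and leaving out samples.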

Additional observations from a re-analysis of the deposited data

Results flagged for a closer look

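In 30 groups tested (10 members in AVF, sham and nAVF), 6 held a sample whose gap to the nearest other sample was a large share of the range of the group. For separate groups chance gives about 1 in 20. These groups were not separate, since nAVF is part of AVF and several members moved together, so the count of 6 is no measure against chance. Sample #07 was the highest AVF sample of Atp2b2, with 9.91 normalized CPM against 2.40 to 4.52 in the others (gap over range 0.717), of Cdh6, with 23.8 against 4.82 to 8.34 (0.815), and of Spock3, with 44.9 against 14.0 to 24.2 (0.671). It was also the highest within nAVF for Cdh6 (0.866) and for Prkcz, with 9.05 against 5.20 to 5.43 (0.941). Sample #07 was the library with the fewest counts and the highest share on ribosomal RNA, and it had the highest sympathetic neuron score of the AVF samples, and the part of these in its levels was not tested. Sample #22 was the lowest sham sample of Fam174b, with 47.3 against 55.2 to 58.7 (0.693).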

How the results depend on the processing

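The replicate numbers of the labels were tested for pairing: the correlation of deviations from the group means was -0.133 to 0.253 over 6 pairs of the same sex and number, 3 of them over 0.1, and 2 of 6 AVF samples were most like their own number, so the numbers were not taken to pair the mice. The replicate block gave 5 members lower in AVF, 3 in nAVF, 7 in OUT, 3 lower and 9 higher family genes, 3 members on the sympathetic neuron score, and 0 on the Schwann cell and white adipocyte scores. In OUT the block leaves very little to estimate the spread from, since only the partners of samples #05 and #09 are compared. Its 7 members held Spock3, Lepr and Svip but not Fam174b and Pla2g5. The 5 members lower in AVF were 8 with no fold change threshold. The 5 lower family genes were 13 with DESeq2, 3 with no filter and 2 without the OUT samples. DESeq2 gave 1 member between female and male sham, and 2, 5 and 4 on the white adipocyte, sympathetic neuron and Schwann cell scores. The share of all genes called was counted in the main fits only, so the counts of these alternatives have no background beside them. The Schwann cell count was 2 with relative log expression factors, and the white adipocyte count was 0 without the OUT samples. Leaving out 1 sample at a time gave 5 to 8 members lower in AVF, 3 to 8 in nAVF, 1 to 8 in OUT, 3 to 9 lower and 5 to 11 higher family genes, 2 to 4 members on the sympathetic neuron score, 0 to 2 on brown fat, 0 to 1 on white adipocyte and 1 to 2 on Schwann cell. The cause of these changes was not tested. No log2 fold change of a member in AVF against sham turned positive in any fit. The members were picked as lower in these same libraries, so this sign was in large part fixed by the picking. Depth limits Pla2g5 most, with 3 to 8 counts in AVF.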
